A study of Mus musculus with 16 samples.

Results

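The enzymes that write, copy and erase DNA methylation were followed through fetal and newborn male germ cell development in maps of open chromatin. The 8 genes were listed by name: *Dnmt1*, *Uhrf1*, *Dnmt3a*, *Dnmt3b*, *Dnmt3l*, *Tet1*, *Tet2* and *Tet3*, of 21887 protein-coding genes. The assay was ATAC-seq, which uses a transposase to cut and tag open DNA, and the cells were gonocytes, male germ cells of the fetal and early postnatal testis. The cells came from mice carrying the Mvh-Venus transgene, a fluorescent germ-cell reporter, and each group was either heterozygous (*Morc1* +/-) or homozygous mutant (*Morc1* -/-) for *Morc1*, a germline ATPase of the MORC family needed for transposon silencing. Cells were taken before birth at E13.5 and E16.5 (E, embryonic day) and after birth at P0 and P3 (P, postnatal day). The *Morc1* -/- groups are called knockout below. The labels list 2 samples for each of 8 stage and genotype groups, 16 in all, with *Morc1* +/- cells as the controls, and nothing on strain, litter or pooling of animals. The study's title names the effect of the *Morc1* knockout on gonocyte chromatin as its subject, and these genes can be followed across stage and, at E13.5 and E16.5, across genotype.

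Methylation of cytosine in CpG pairs is erased in primordial germ cells and laid down anew in male germ cells during their fetal arrest. *Dnmt3a* and *Dnmt3b* encode the de novo methyltransferases, and *Dnmt3l* a catalytically inactive partner that stimulates them. *Dnmt1* copies methylation onto newly replicated DNA, to which *Uhrf1* recruits it. The dioxygenases encoded by *Tet1*, *Tet2* and *Tet3* oxidise 5-methylcytosine and so start its removal.

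The measurements are peak lists, that is, positions of open regions with no height or count, so depth is unknown. The 6 distinct lists held 39559 to 67258 peaks, nearly all 501 bp wide. The P0 list was the same file content for both genotypes, as was the P3 list, so P0 and P3 carry no genotype here. Each list stands for a whole group, which leaves no spread between replicates and no test across samples. A peak is evidence of accessibility and not of expression. *Morc1* itself had a peak within 1000 bp of an outer end of the gene in all 6 lists, which does not check the knockout label. Of 9 male germ cell markers, *Ddx4*, *Dazl*, *Mael*, *Sycp3* and *Dnd1* had such a peak in all 6 lists, *Tdrd9* in the E16.5 lists of either genotype and at P0, *Dppa4* at P0, and *Tdrd1* and *Rhox6* in none. Of 18 markers of somatic testis cells, 13 had no such peak in any list, *Sox9*, *Amh*, *Star* and *Ptprc* among them, 4 had one in all 6 (*Cldn11*, *Dhh*, *Cyp11a1* and *Kdr*), and the Sertoli cell marker *Wt1* had one in every list but P3. The somatic count was therefore 5 of 18 in each earlier list and 4 at P3. Of all 21887 protein-coding genes, 11384 had such a peak in all 6 lists and 6983 in none. By list, the share was 55.6% to 77.8% of germ cell markers, 22.2% to 27.8% of somatic markers and 58.3% to 63.0% of all genes. The germ cell share was thus close to that of all genes in most lists. Such a peak can lie at either end of a gene, and at its listed start *Dhh* had a peak in no list. The part of other cell types in the results below was not tested.

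All 8 genes had open chromatin at or near a start, and only the de novo cofactor *Dnmt3l* and the dioxygenase *Tet1* lacked a start peak in any of the 6 lists. Each gene was read in its annotated bounds plus 10 kb on each side, and a gene was counted as having a start peak when a peak lay within 1000 bp of an annotated start. By this measure 7 members had a start peak in heterozygous and 8 in knockout cells of E13.5, 8 in each E16.5 list, 8 at P0 and 6 at P3. In bulk cells, fewer cells with an open site and less access per cell cannot be told apart. Over the 17492 protein-coding genes with a listed start, the share with a start peak was 60.5%, 60.9%, 61.5%, 62.3%, 63.8% and 60.0% in the same order. The share over all genes thus varied by a few percentage points, while the lists differed widely in length. *Dnmt1*, *Uhrf1*, *Dnmt3a*, *Dnmt3b*, *Tet2* and *Tet3* had a start peak in every list. *Tet1* lacked one at P3, and *Dnmt3l* lacked one at P3 and in E13.5 heterozygous cells. At *Dnmt3l* the calls at E13.5 and P3 rest on the distance limit and on a peak at the neighbouring gene *Aire*, as described further on. Another *Dnmt3l* start was covered by a peak at E16.5 and P0. Its nearest peak was 6029 and 6140 bp away in the E13.5 heterozygous and knockout lists and 6053 bp away at P3. At *Tet1* the nearest P3 peak was 8808 bp from the start. Among the somatic markers, read at the outer ends of genes and not at starts, *Wt1* also lacked its peak at P3 only. The peaks of *Cldn11*, *Dhh*, *Cyp11a1* and *Kdr* were present at P3. The part of somatic cells in the *Tet1* pattern was not tested.

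**Figure D1:**
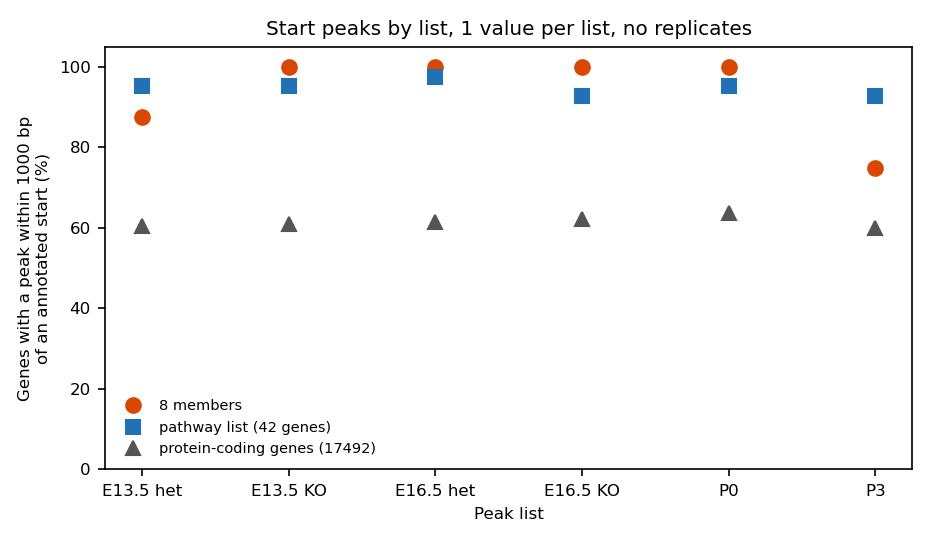
Percentage of genes (y axis) with a peak within 1000 bp of an annotated start in each of the 6 peak lists (x axis), for the 8 members (circles), 42 genes of the wider methylation pathway (squares) and 17492 protein-coding genes (triangles). Each point is 1 list without replicates. The members stand at 75.0% to 100% and the protein-coding genes at 60.0% to 63.8%.

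The 8 genes have 15 annotated starts, numbered here along each gene. A start is a stricter unit than a gene, since a peak can serve 1 start of several. Of the 15 starts, 8 had a peak within 1000 bp in all 6 lists, beside 52.6% of 21263 starts of protein-coding genes. A peak in every list except P3 was found at 3 starts, *Dnmt3a* starts 1 and 2 and the *Tet1* start, beside 1.15% of all starts. The 8 starts rest on 6 regions, since *Dnmt1* starts 2 and 3 share a region and so do *Uhrf1* starts 1 and 2. *Dnmt3a* starts 1 and 2 lie close together and share their peaks, so they are not separate observations. The pattern of a peak in each E16.5 list, at P0 and nowhere else was found at *Dnmt3l* start 2, beside 0.644% of all starts. *Dnmt3l* start 3 had a peak in no list, as had 33.8% of all starts.

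**Figure D2:**
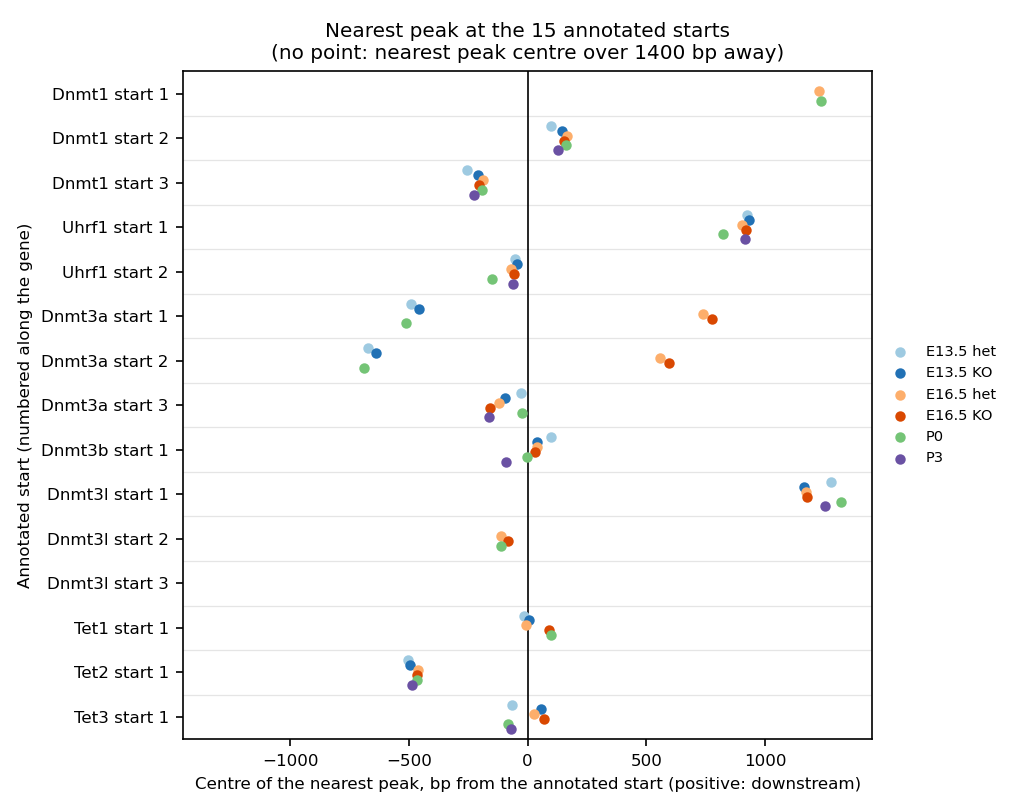
Distance in bp (x axis) from each of the 15 annotated starts (rows) to the centre of the nearest peak, 1 point per list in 6 colours; no point is drawn where that centre lies over 1400 bp away. *Dnmt3l* start 2 has points for E16.5 and P0 only, and the points at *Dnmt3a* starts 1 and 2 lie upstream at E13.5 and P0 and downstream at E16.5.

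Maintenance methylation was represented by *Dnmt1* and *Uhrf1*, each with a region at a listed start that was present in all 6 lists. *Dnmt1* (gene ID 13433, chromosome 9, 20907206 to 20959888, minus strand) has 3 listed starts. Distances are given along the gene from the start named, negative upstream and positive downstream. Starts 2 and 3 shared a peak centred 99, 145, 166, 153, 162 and 129 bp from start 2 in the E13.5 heterozygous, E13.5 knockout, E16.5 heterozygous, E16.5 knockout, P0 and P3 lists. The 6 positions differed by less than the width of a peak. Near start 1, the one farthest upstream, a peak lay at 20958410 to 20958910 in the E16.5 heterozygous list and at 20958405 to 20958905 at P0. Its nearest edge was 978 and 983 bp from that start, just inside the 1000 bp limit, and the other 4 lists held no counterpart. A further region, centred 8489 bp downstream of start 3, was present in both E13.5 lists and in no later list.

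*Uhrf1* (gene ID 18140, chromosome 17, 56303337 to 56323486, plus strand) encodes the reader of half-methylated CpG pairs. Its window held 2 peaks in each of the 6 lists, the same 2 regions throughout. One was centred between -152 and -45 bp of start 2 and also counted for start 1, from which its edge was 574 to 681 bp away, and the other lay in the flank downstream of the gene, inside the neighbouring gene *Kdm4b*. It was the only member with no varying region.

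The promoters of *Dnmt1* start 3 and *Uhrf1* start 2 are shown because these were the only 2 of the 15 that held a match to the E2F motif, a site read by cell-cycle transcription factors. Each runs from 250 bases before to 50 bases from the start on, 5′ to 3′ along the gene, from RefSeq (GRCm38.p6): chr9:20952574-20952873 on the minus strand and chr17:56304063-56304362 on the plus strand. Capitals mark matches to the motifs spelled out further on (GC box, CCAAT box, E-box and E2F), on either strand.
Dnmt1 start 3: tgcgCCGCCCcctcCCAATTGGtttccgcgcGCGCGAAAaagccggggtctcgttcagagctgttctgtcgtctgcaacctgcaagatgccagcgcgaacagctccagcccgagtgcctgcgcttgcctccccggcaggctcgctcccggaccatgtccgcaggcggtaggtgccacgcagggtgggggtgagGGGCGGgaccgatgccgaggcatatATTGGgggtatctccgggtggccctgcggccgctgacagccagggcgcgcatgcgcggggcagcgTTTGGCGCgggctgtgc
Uhrf1 start 2: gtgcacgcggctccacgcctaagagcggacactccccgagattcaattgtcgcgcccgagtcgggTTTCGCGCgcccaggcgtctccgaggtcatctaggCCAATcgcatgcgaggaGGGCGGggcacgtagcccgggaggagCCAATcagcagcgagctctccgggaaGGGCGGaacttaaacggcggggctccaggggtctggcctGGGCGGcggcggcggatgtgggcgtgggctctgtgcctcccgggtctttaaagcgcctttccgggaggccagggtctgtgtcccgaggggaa

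De novo methylation is the work of *Dnmt3a*, *Dnmt3b* and *Dnmt3l*, and their windows differed in how much they varied between stages. Of the 44 regions described further on, *Dnmt3a* held 12, *Dnmt3l* 6 and *Dnmt3b* 4. Regions absent at E13.5 and present in both E16.5 lists numbered 4 at *Dnmt3a*, 2 at *Dnmt3l* and 0 at *Dnmt3b*. *Tet1*, not a de novo gene, held 2 such regions among its 7. Over all 44 regions the share was 18.2%, with a Wilson interval of 9.51 to 32.0. This interval, which treats regions of the same gene as independent, includes the 12.3% found in windows of protein-coding genes. An excess at the de novo genes was not tested. *Dnmt3a* (gene ID 13435, chromosome 12, 3801559 to 3914443, plus strand) had 12 regions in its window, more than any other member. Peaks numbered 7 in each E13.5 list, 8 and 9 in the E16.5 heterozygous and knockout lists, 9 at P0 and 7 at P3. The number changed little, but the regions did: 4 of the 12 were absent from both E13.5 lists and present in both E16.5 lists. They were centred at 577, 9987 and 27153 bp from start 2 and at -42048 bp from start 3. Of these, the regions at 27153 bp and -42048 bp were also present at P0 and P3, and that at 9987 bp at P0. The region at 27153 bp is a chain of shifted peaks. Its E16.5 peaks lay at 3833890 to 3834390 (heterozygous) and 3833763 to 3834263 (knockout), and its P0 and P3 peaks at 3834363 to 3834863 and 3834355 to 3834855. The E16.5 heterozygous peak overlapped those of P0 and P3, while the E16.5 knockout peak shared no base with either. In the reverse direction, a region at -6521 bp from start 3 was present in both E13.5 lists only. The 3 regions present in all 6 lists were that at start 3, one 18648 bp downstream of start 2 and one in the upstream flank.

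The 2 promoters of *Dnmt3a* differed. Start 3, inside the gene, belongs to the short isoform Dnmt3a2, the main form of the enzyme in germ cells, and was covered by a peak in all 6 lists. The non-coding gene *Gm31623* overlaps this region, and peaks carry no strand. The centres lay at -30, -95, -122, -157, -25 and -163 bp from the start in the E13.5 heterozygous, E13.5 knockout, E16.5 heterozygous, E16.5 knockout, P0 and P3 lists. Starts 1 and 2, which begin the long isoform, were inside a peak in none of the lists. The nearest peak was centred at -491, -459 and -511 bp from start 1 in the E13.5 heterozygous, E13.5 knockout and P0 lists. In the E16.5 lists it was centred at 739 bp (heterozygous) and 776 bp (knockout), downstream of start 1. At P3 the nearest peak was 14761 bp away. The 2 genotypes of a stage had the same arrangement.

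*Dnmt3b* (gene ID 13436, chromosome 2, 153649411 to 153687730, plus strand) had its only listed start covered in all 6 lists, with peak centres from -91 bp (P3) to 99 bp (E13.5 heterozygous). Its other 3 regions were in 1 to 4 lists. A peak 11426 bp downstream of the start was in the E16.5 heterozygous list only, and a peak at -10046 bp at P0 only. The flank region 45296 bp downstream of the start was in the E13.5 heterozygous, E16.5 knockout, P0 and P3 lists.

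*Dnmt3l* (gene ID 54427, chromosome 10, 78042287 to 78063622, plus strand) had 2 peaks in its window in each E13.5 list, 4 and 5 in the E16.5 heterozygous and knockout lists, 5 at P0 and 3 at P3. Per 100 kb this was 4.84 for either genotype of E13.5, 9.68 and 12.1 for those of E16.5, then 12.1 (P0) and 7.26 (P3). The 2 regions seen in all 6 lists lie at starts of neighbouring genes: their peaks were centred 2 to 158 bp from the start of *Aire*, an immune-tolerance regulator read from the opposite strand, and 23 to 151 bp from that of *Icosl*, an immune co-stimulatory ligand. At *Dnmt3l* start 2, which lies inside the gene, a peak was present at 78049481 to 78049981 in E16.5 heterozygous cells, 78049508 to 78050008 in E16.5 knockout cells and 78049478 to 78049978 at P0. These 3 peaks covered the start and were centred at -111, -84 and -114 bp. In the E13.5 heterozygous, E13.5 knockout and P3 lists the nearest peak to start 2 was 6029, 6140 and 6053 bp away. A second region, centred 12094 bp downstream of start 3 in the flank and inside the non-coding gene *Gm51775*, followed the same pattern. Of the 2 other flank regions, both inside *Aire*, the one at -7768 bp from start 1 was in the E16.5 knockout and P0 lists and the one at -4930 bp at P3 only.

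By the 1000 bp measure, the E13.5 genotype difference and the P3 absence at *Dnmt3l* rest on the *Aire* peak and on the distance limit. That peak came within 915 bp of *Dnmt3l* start 1 in the knockout list and within 1026 bp in the heterozygous list, where it lay at 78043313 to 78043813. The peaks of both genotypes overlapped. At P3 its edge was 1002 bp from start 1. With a limit of 500 bp, 7 members had a start peak in each E13.5 list, and with 2000 bp 8 members in each. At P3, 6 members had one with 500 bp and 7 with 2000 bp.

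The promoters of *Dnmt3l* start 2 and *Dnmt3a* start 3 are shown because the former was open in 3 lists and the latter in all 6. They are from RefSeq (GRCm38.p6) at chr10:78049592-78049891 and chr12:3891494-3891793, both on the plus strand, with capitals as above. Both hold the E-box CACGTG and GC boxes, and they differ in CpG content, with 4 and 18 CpG pairs.
Dnmt3l start 2: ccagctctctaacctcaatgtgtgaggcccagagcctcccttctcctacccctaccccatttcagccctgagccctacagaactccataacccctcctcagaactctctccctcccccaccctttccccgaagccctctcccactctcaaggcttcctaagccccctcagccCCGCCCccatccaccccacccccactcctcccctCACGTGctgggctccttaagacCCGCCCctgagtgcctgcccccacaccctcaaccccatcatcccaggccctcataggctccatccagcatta
Dnmt3a start 3: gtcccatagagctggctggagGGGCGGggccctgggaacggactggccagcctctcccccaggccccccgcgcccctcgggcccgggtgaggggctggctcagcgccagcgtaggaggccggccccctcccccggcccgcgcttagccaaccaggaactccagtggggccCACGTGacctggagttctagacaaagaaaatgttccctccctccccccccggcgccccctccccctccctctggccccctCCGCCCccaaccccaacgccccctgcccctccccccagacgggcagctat

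**Figure D3:**
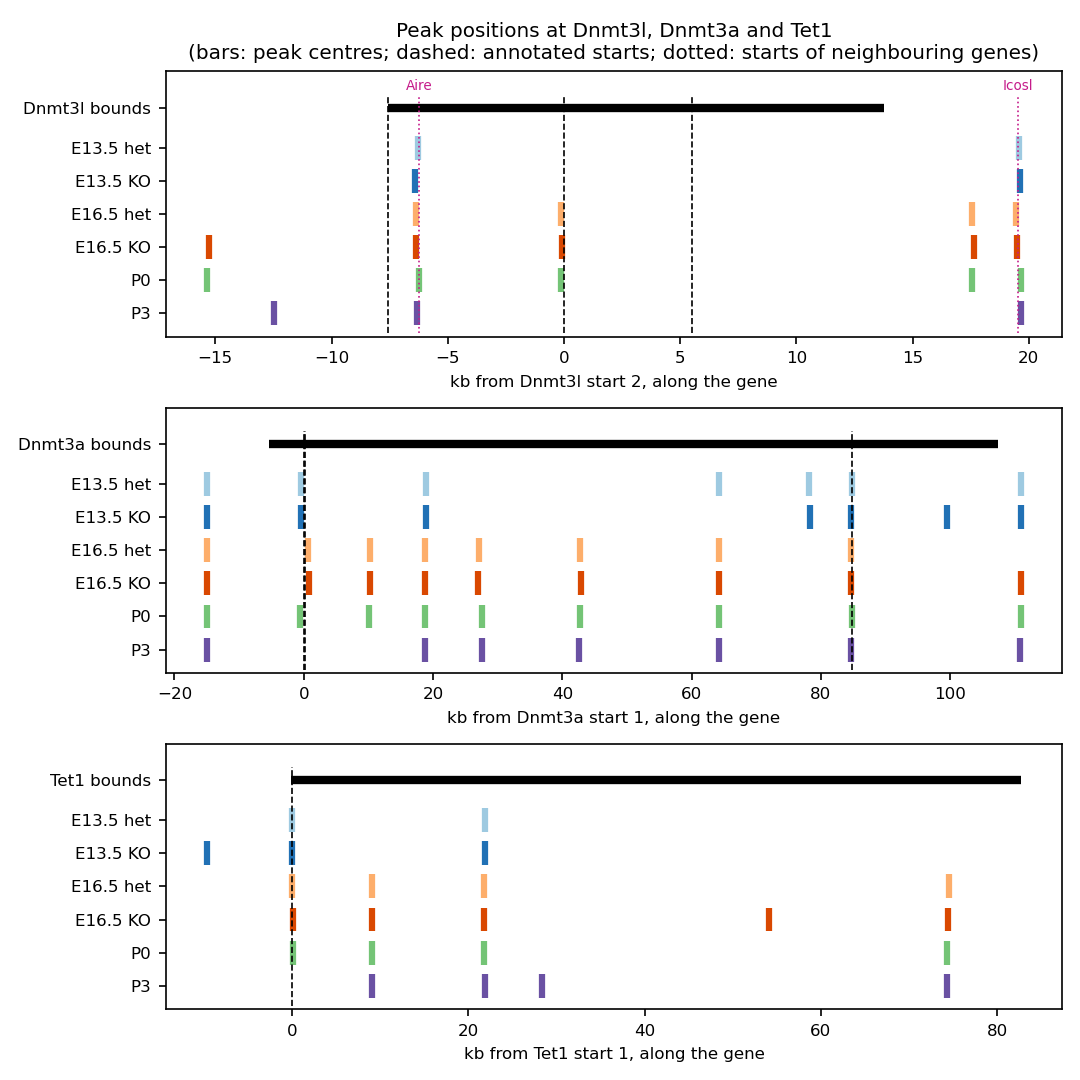
Peak centres (bars) in the 6 lists along *Dnmt3l*, *Dnmt3a* and *Tet1*, in kb from the named start along the gene (x axis); black bars show the gene bounds, dashed lines annotated starts and dotted lines starts of neighbouring genes. At *Dnmt3l* start 2 only the E16.5 and P0 rows have a bar, and at the *Tet1* start only the P3 row has none.

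The demethylating dioxygenases differed from one another. *Tet1* (gene ID 52463, chromosome 10, 62804570 to 62887469, minus strand), the form known for its part in primordial germ cells, had its start covered by a peak in 5 lists. The centres were at -17 and 6 bp from the start in the heterozygous and knockout cells of E13.5, at -7 and 88 bp in those of E16.5, and at 97 bp at P0. The non-coding gene *Gm51805* overlaps this region too. At P3 the nearest peak lay 8808 bp away. Its window held 4 peaks at P3, 1 of them in no other list, beside 2 and 3 in the E13.5 lists, 4 and 5 in the E16.5 lists and 4 in that of P0. Regions centred 9061 and 74477 bp downstream of the start were absent at E13.5 and present in the 4 later lists. A region 21795 bp downstream was present in all 6 lists.

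The *Tet1* promoter is shown because it was the only start of its kind among the *Tet* genes, open in all lists but P3. It lies at chr10:62887275-62887574 on the minus strand (RefSeq, GRCm38.p6), with capitals as above; it holds 17 CpG pairs and 1 GC box.
Tet1 start 1: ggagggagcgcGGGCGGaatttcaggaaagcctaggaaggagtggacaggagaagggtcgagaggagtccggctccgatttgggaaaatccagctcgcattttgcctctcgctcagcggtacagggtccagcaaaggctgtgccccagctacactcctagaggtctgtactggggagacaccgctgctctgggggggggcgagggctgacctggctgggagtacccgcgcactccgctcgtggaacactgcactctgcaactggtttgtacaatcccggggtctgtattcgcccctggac

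*Tet2* (gene ID 214133, chromosome 3, 133463677 to 133545136, minus strand) had a peak centred between -504 and -462 bp of its start in all 6 lists. This peak stopped 212 to 254 bp short of the listed start, on its upstream side. The joined region, 133544602 to 133545144, reached the 5′ end of the gene bounds, where no start is listed. The *Tet2* window was the sparsest at E16.5, with 1 peak in each genotype, compared with 3 and 2 at E13.5 and 2 at P0 and P3. A flank region centred 90331 bp downstream of the start was present in 3 lists, those of E13.5 and P0. A peak 10130 bp downstream was in the E13.5 heterozygous list only, and one 14481 bp downstream at P3 only.

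*Tet3* (gene ID 194388, chromosome 6, 83362373 to 83457208, minus strand) had 2 regions in all 6 lists. One covered the listed start, with centres from -81 to 69 bp. The same region covers the start of the divergent non-coding gene *B230319C09Rik*. The other was centred at -15036 bp, at 83456281 to 83457148, near the 5′ end of the gene bounds. No start is listed at that end, so this region was counted as away from starts. A region 19715 bp downstream of the start was present in both E13.5 lists only. A flank region inside *Bola3* was in every list except P0.

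The genotypes were compared at E13.5 and E16.5 over all peaks in the 8 windows, counting a peak as found when it shared at least 1 bp with a peak of the other list. At E13.5, 22 of 25 heterozygous peaks were found in the knockout list (88.0%, 95% Wilson interval 70.0 to 95.8), which leaves 3 missing, and 2 of 24 knockout peaks were missing from the heterozygous list. Over the windows of all protein-coding genes the shares missing were 17.1% and 16.7%. At E16.5, 2 of 27 heterozygous peaks were missing from the knockout list and 4 of 29 knockout peaks from the heterozygous list, beside 14.8% and 19.4% over all windows. The members' shares lay below these backgrounds in all 4 directions, and the intervals of the shares found, which cover the counting of peaks only, include the background values. Whether the differences exceed those between replicate samples was not tested, since no list is given per sample.

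None of the 5 regions that differed between genotypes at E13.5 lay at a member's start. The heterozygous-only peaks were at *Dnmt3a*, -20600 bp from start 3 and present again in the 4 later lists, in the *Dnmt3b* flank and in *Tet2*. The knockout-only peaks were 14744 bp downstream of *Dnmt3a* start 3 and at -9723 bp from the *Tet1* start. At E16.5 the heterozygous-only peaks were the one near *Dnmt1* start 1 and the one 11426 bp into *Dnmt3b*. The knockout-only peaks were in the flanks of *Dnmt3a*, *Dnmt3b* and *Dnmt3l* and 54151 bp downstream of the *Tet1* start. No region was private to the same genotype at both stages, and the *Dnmt3b* flank region was heterozygous-only at E13.5 and knockout-only at E16.5. Over all 21263 starts, the share with a peak in the heterozygous list and not the knockout list was 1.27% for E13.5 and 1.74% for E16.5, and the reverse share was 1.60% and 2.61%. Among the 15 member starts, 1 was knockout-only at E13.5 (*Dnmt3l* start 1, by the distance limit) and 1 heterozygous-only at E16.5 (*Dnmt1* start 1). Where both genotypes held a peak, the median distance between the centres was 35 bp for E13.5 (22 peaks, 0 to 163 bp) and 35 bp for E16.5 (25 peaks, 1 to 232 bp), beside 26 and 34 bp over all shared peaks of the lists.

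Across stages, the windows held 25 and 24 peaks in the E13.5 heterozygous and knockout lists, 27 and 29 in those of E16.5, 30 for P0 and 26 for P3. Per 100 kb of window this was 3.76, 3.61, 4.06, 4.36, 4.51 and 3.91 peaks. Over the windows of all protein-coding genes it was 2.55, 2.56, 2.59, 2.72, 2.86 and 2.29. The median member had 2.5 to 3 peaks and the median protein-coding gene 1 or 2. These medians, unlike the values per 100 kb, take no account of window length. The longest list, P0, also held the most member peaks, and the part of list length was not tested.

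From E13.5 to E16.5, 17 of 25 member peaks were found again in heterozygous cells (68.0%, interval 48.4 to 82.8) and 17 of 24 in knockout cells (70.8%, 50.8 to 85.1), beside 62.7% and 65.5% over all protein-coding windows. From E16.5 to P0 the shares were 88.9% (71.9 to 96.1) of 27 heterozygous and 86.2% (69.4 to 94.5) of 29 knockout peaks, beside 79.2% and 77.9%. From P0 to P3 it was 70.0% (52.1 to 83.3) of 30 peaks, beside 67.3%. All 5 intervals include the background value. They cover the counting of peaks only and treat peaks of the same gene as independent. The highest share found again was that from E16.5 to P0, among the members and over all protein-coding windows. The list searched in that step, P0, was also the longest, with 67258 peaks beside 44760 at P3. The part of list length in these shares was not tested.

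Joining overlapping peaks of the 6 lists gave 44 regions in the 8 windows. Of these, 14 were present in all 6 lists (31.8%, interval 20 to 46.6), beside 26.7% of 53957 regions in windows of protein-coding genes, and 10 were in 1 list only (22.7%, 12.8 to 37.0), beside 29.4%. Of these 10, 4 were in the P3 list, 1 each at *Dnmt3l*, *Tet1*, *Tet2* and *Tet3*. Both E13.5 lists and no other held 3 regions, 1 each at *Dnmt1*, *Dnmt3a* and *Tet3* (background 8.60%). No E13.5 list but both E16.5 lists held 8 regions (18.2%, 9.51 to 32.0), beside 12.3%. These 8 were 4 at *Dnmt3a*, 2 at *Dnmt3l* and 2 at *Tet1*, with none at the other 5 genes. The 4 at *Dnmt3a* include the region downstream of starts 1 and 2, which had a peak upstream of them at E13.5. Presence in the 4 later lists and in no E13.5 list was found for 4 of the 44 regions (9.09%, 3.59 to 21.2), beside 5.21%, and these lay at *Dnmt3a* and *Tet1*. They include the *Dnmt3a* chain of shifted peaks, in which the E16.5 knockout peak shared no base with the P0 or P3 peak. Genotypes differed at 5 of 44 regions at E13.5 and 6 of 44 at E16.5 (11.4% and 13.6%), beside 17.6% and 18.6%.

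**Figure D4:**
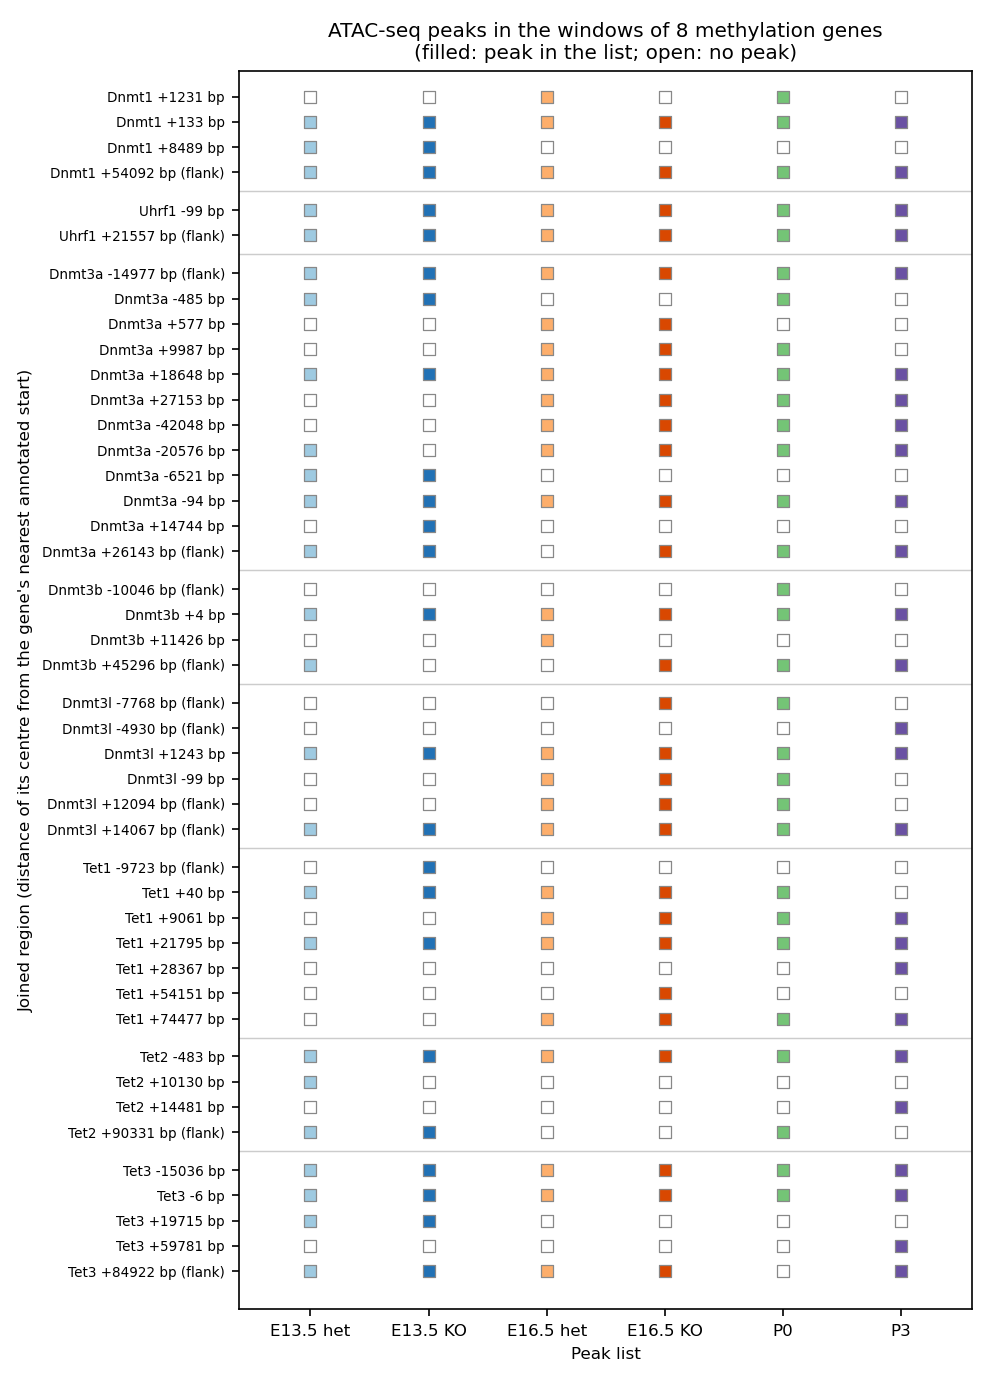
Presence (filled) or absence (open) of a peak in each of the 6 lists (columns) for the 44 joined regions in the windows of the 8 genes (rows, in order along each gene), each labelled with the distance in bp of its centre from the gene's nearest annotated start. The 14 rows filled throughout include the start regions of *Dnmt1*, *Uhrf1*, *Dnmt3b*, *Tet2* and *Tet3*.

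Regions were also counted by position. Of 12 regions within 1000 bp of a member's start, 7 were in all 6 lists and 0 in 1 list only. Over all windows, 73.3% of 12037 regions within 1000 bp of a listed start were in all 6 lists and 6.99% in 1 list only. The 7 include the *Aire* peak, which lay beyond 1000 bp of *Dnmt3l* start 1 in 3 of the 6 lists. Of 19 regions elsewhere in the genes, 3 were in all 6 lists and 7 in 1 list only. The 3 include the *Tet3* region at the 5′ end of the gene bounds, where no start is listed. Of 13 regions in the flanks, 4 were in all 6 lists and 3 in 1 list only. Over all windows, 13.3% of 41920 regions farther from listed starts were in all 6 lists and 35.9% in 1 list only, a class that leaves out flank regions at a neighbour's start. Among the 13 flank regions, 8 overlapped another gene, such as *Eif3g*, *Kdm4b*, *Aire*, *Icosl* and *Bola3*, so a flank peak need not belong to the member. The gene table gives outer bounds and starts only, and exons and introns were not told apart.

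CpG content was measured at the promoters as a property that the choice of genes did not use. The ratio of observed to expected CpG pairs in the 300 bases around the start was 0.60 or more at 7 of the 15 starts, and of these 4 had a peak in all 6 lists and 3 in all but P3. Of 4 starts with a ratio from 0.40 up to 0.60, 4 had a peak in all 6 lists, though 2 of them, *Dnmt1* start 2 and *Uhrf1* start 1, share it with another start. Of 4 starts with a lower ratio, none did: *Dnmt1* start 1 (0.10) and *Dnmt3l* starts 1, 2 and 3 (0.27, 0.22 and 0.11). The median over all starts was 0.57. Among all starts of protein-coding genes, a peak in all 6 lists was found at 86.0% of 10137 starts in the highest class, 58.5% of 2754 in the middle class and 10.2% of 8372 in the lowest. The *Dnmt3l* start 2 pattern of E16.5 and P0 only was held by 84 starts (1%) of the lowest class, 31 (1.13%) of the middle and 22 (0.217%) of the highest.

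Motifs were searched in the same 300 bases on both strands, and a match is a description of letters, not of binding. The GC box GGGCGG was in 12 of the 15 member promoters and in 46.2% of all 21263. The CCAAT box (CCAAT) was in 5 of 15 and in 38.2% of all. The E-box CACGTG was in 2 of 15, *Dnmt3a* start 3 and *Dnmt3l* start 2, and in 7.84% of all. The E2F motif, searched as TTTCGCGC, TTTGGCGC, TTTCCCGC or TTTGCCGC, was in 2 of 15, *Dnmt1* start 3 with 2 matches and *Uhrf1* start 2 with 1, and in 2.85% of all. The TATA box TATAAA, the octamer ATGCAAAT and the CRE TGACGTCA had no match in the member promoters and were in 12.6%, 1.66% and 2.23% of all. Neighbouring GC boxes can overlap, and the promoters of *Dnmt3a* starts 1 and 2 overlap, so the 15 are not independent.

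Other genes of the pathway were read from a list of 55, of which 42 had a listed start, covering methyl-CpG readers, partners of maintenance, base-excision repair, recruitment of de novo methylation, methyl-donor metabolism and germline partners. A start peak was present in all 6 lists at 38 of the 42 (90.5%), compared with 6 of the 8 members and 55.0% of 17492 protein-coding genes. All 5 readers (*Mbd3*, *Mbd4*, *Zbtb33*, *Zbtb38* and *Zbtb4*) and all 7 maintenance partners (*Uhrf2*, *Usp7*, *Hells*, *Cdca7*, *Pcna*, *Zbtb24* and *Dmap1*) were among them. The exceptions were 4. *Neil1*, a glycosylase of base-excision repair, had a start peak in all lists but P3, the same 6-list pattern as *Tet1*. *Ogt*, the O-GlcNAc transferase that binds TET proteins, lacked one in E16.5 knockout cells only, and *Ehmt2*, an H3K9 methyltransferase, had one in E16.5 heterozygous cells only. Over all 21263 starts, 1.74% were heterozygous-only at E16.5 and 2.61% knockout-only. An effect of genotype at these 2 genes was not tested. *Gadd45b*, a DNA-damage response gene, had one in no list. No pathway gene matched the gene-level pattern of *Dnmt3l*. Outside the pathway list, the germ cell marker *Tdrd9*, a helicase of transposon silencing, had the pattern of *Dnmt3l* start 2, as had 0.644% of all starts. That comparison, with a single start and another list of genes, was not planned.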

How the data were processed

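For every stage and genotype the authors deposited 1 table of peak positions, 8 in all, giving chromosome, start and end and no other value. Per the submitters' processing notes the build was mm10, and bcl2fastq 2.20, cutadapt 1.18, Bowtie2 2.3.4.1, deepTools 3.5.0 and HOMER 4.10 were named, with no role given. The peak threshold and any pooling of the 2 samples per group are not given in the sources used here.

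Gene bounds, starts and promoter sequences came from RefSeq tables of GRCm38.p6, the assembly mm10 denotes, matched by symbol and gene ID; all 8 genes matched. Positions are 1-based. Peaks were read with Python 3.11.15, intervals with SciPy 1.17.1 and figures with matplotlib 3.10.9. A peak belonged to a gene when it overlapped the bounds plus 10 kb; peaks sharing 1 bp were matched. Overlap code was tested on simulated lists. CpG classes and motifs were chosen after the positions were seen, and markers were read at either outer end of a gene. The text names all 8 members, pathway genes whose start peak differed between genotypes or followed the pattern of a member that varied, neighbours met by a peak, and, chosen after their values were seen, *Gadd45b* and the readers and maintenance partners. Members and lists were chosen with earlier results of these data known.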

Additional observations from a re-analysis of the deposited data

How the results depend on the processing

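No paired analysis was possible because positions are given per group and not per sample; for the same reason no replicate was left out, and a stricter threshold was not run because peaks carry no score. Of 49 recomputed counts and shares, 47 stayed within 1.5 times the reported count or inside the reported 95% interval. The 2 that moved came from leaving out the flanks (gene bounds only), which removes peaks by construction: knockout peaks missing from the heterozygous list became 1 at E13.5 (from 2) and 1 at E16.5 (from 4). Counting peaks with centres within 500 bp as the same equals the 1 bp rule for peaks 501 bp wide, so it is not among the 49. Requiring 50% of both peaks lowered the E16.5 heterozygous share found at P0 to 85.2%, at the shifted *Dnmt3a* peak. With 2000 bp as the start distance, 7 members had a start peak at P3. Without counts, a peak just under the threshold cannot be told from closed chromatin.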
